A study of Homo sapiens with 6 samples.

Results

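The 10 genes described here encode cytokine receptor chains, Janus kinases (JAKs), STAT transcription factors and a feedback inhibitor. They are IL2RA, IL2RB, IL2RG, CSF2RB, JAK1, JAK3, STAT3, STAT5A, STAT5B and SOCS1. They were taken by symbol from a count table of 26485 genes, with no threshold on their values, and all 10 symbols were in the table. The table covered H9 cells, an established human T lymphoma line that the labels call cutaneous. Both groups came from this 1 line, grown in serum-containing medium: 3 control libraries from cells given the vehicle DMSO and 3 from cells given 1 µM of the compound PA4, with treatment lasting 24 h. The study's design text ties the comparison to PA4-induced cell death. No label says that replicates came from separate cultures, so the p-values reflect only how these libraries vary, which may be technical.

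Cytokines of the interleukin-2 family bind receptors that share the gamma chain, the product of IL2RG, and each adds chains of its own. JAK1 sits on the cytokine-specific chains and JAK3 on the gamma chain, and on binding they phosphorylate STAT3, STAT5A and STAT5B, which then enter the nucleus and act on genes of survival and growth. SOCS1 is a gene that this signal normally induces and whose product inhibits JAKs. In cutaneous T lymphoma, STAT3 and STAT5 are known for persistent activity.

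Library totals were 18282212 to 22875191 counts. Of 15 T cell markers, 12 passed the filter on low counts, among them CD3E with 2099 to 2529 counts, but CD2 did not exceed 1 count and CD4 ranged from 6 to 12. Control libraries differed among themselves. Control replicates 1 and 3 were set apart by a trend with transcript GC content (Spearman rho 0.787 between their log2 ratio and GC over 8250 genes, which are not independent replicates).

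Transcripts of 8 of the 10 genes were plentiful, IL2RA was barely detected and SOCS1 was not detected. Levels of different genes were compared as CPM per kilobase of gene model, where CPM are counts scaled to a library size of 1000000 after TMM adjustment of the library sizes. Averaged over the 6 libraries, IL2RG stood highest at 219 CPM per kilobase. STAT3 followed at 53.2, JAK1 at 49.3, STAT5B at 29.03, CSF2RB at 20.6, STAT5A at 13.5, JAK3 at 8.01, IL2RB at 5.89 and IL2RA at 0.126 CPM per kilobase. The ranges over the 6 libraries did not overlap between any neighbours in this order, the closest being STAT3, at 51.9 to 53.9, and JAK1, at 46.8 to 50.8 CPM per kilobase. A level per kilobase also depends on which isoforms are made and on how reads are assigned, and neither was tested.

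**Figure D1:**
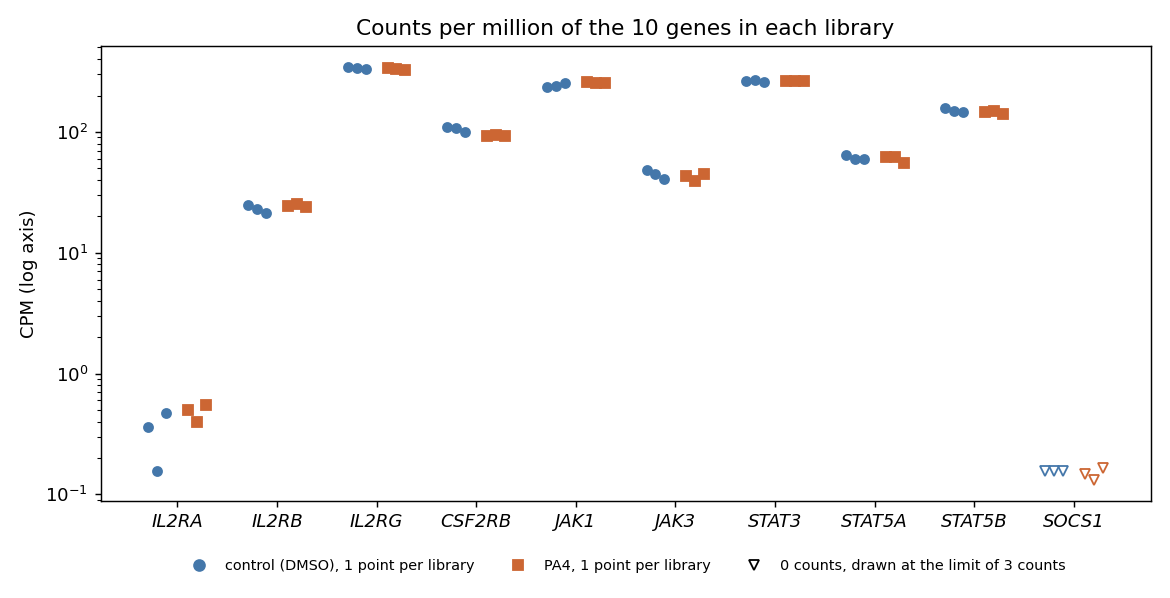
CPM (log axis) of each of the 10 genes, with 1 point per library: circles are the 3 control and squares the 3 PA4 libraries, and open triangles mark 0 counts, drawn at the level of 3 counts. IL2RA lies at 0.156 to 0.548 CPM, SOCS1 has no count, and of the 8 abundant genes CSF2RB has control points that all lie above its PA4 points.

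In edgeR's quasi-likelihood test 0 of the 8 tested members were called at an adjusted p under 0.05, where 28 of 12107 genes, or 0.231%, were called. DESeq2 called 0 of the 8, with 0.442% of genes called, and limma-voom called 0, with 0.223% called. At an unadjusted p under 0.05, 1 member, CSF2RB, was lower and 0 were higher, where 5.29% of all genes passed in either direction. The median log2 fold change of the 8 members, PA4 against control, was -0.032, with 3 positive and 5 negative, beside a median of -0.0040 over all tested genes. The 95% interval of each of the 8 fold changes lay within 1.25-fold in both directions, which held for 71.7% of all tested genes. IL2RA and SOCS1 did not pass the filter and are described by their counts.

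**Figure D2:**
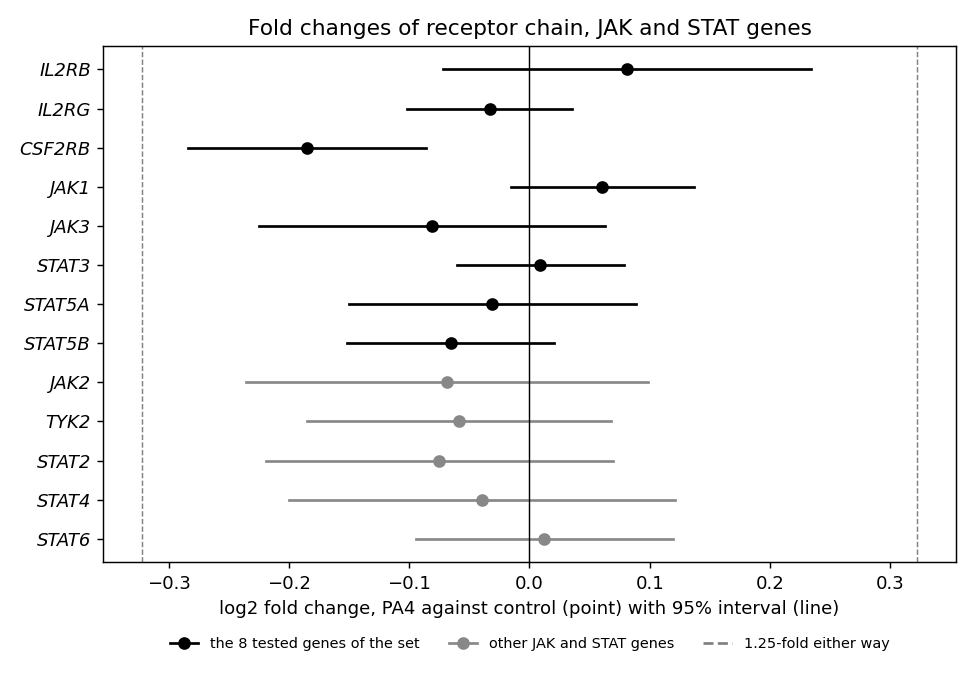
Log2 fold change of PA4 against control (points) with its 95% interval (lines) for the 8 tested members, in black, and for 5 other JAK and STAT genes, in grey; dashed lines mark 1.25-fold. Each of the 13 intervals lies inside the dashed lines, and that of CSF2RB lies below 0.

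Among the receptor chains, IL2RG on the X chromosome (GRCh38, 71107404 to 71111577, minus strand) encodes the gamma chain shared by the receptors for interleukins 2, 4, 7, 9, 15 and 21. It had 347, 336 and 335 CPM in the control libraries and 337, 331 and 327 CPM in the PA4 libraries. The groups overlapped, with control replicate 1 highest and PA4 replicate 3 lowest. The means were 339 ± 7.06 and 332 ± 5.30 CPM (SD, n = 3 each), and the log2 fold change was -0.033 ± 0.032 (SE), with an interval of -0.10 to 0.035 and an edgeR adjusted p of 0.993. In GENCODE release 29, 50.8% of the exon bases of IL2RG also belong to a transcript model on the same strand, AL590764.2, which was not a row of the count table.

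IL2RB, on chromosome 22 (37125838 to 37175118, minus strand), encodes the beta chain of the receptors for interleukins 2 and 15. Its values were 24.9, 23.2 and 21.4 CPM in control and 24.4, 25.2 and 23.8 CPM with PA4. The PA4 libraries lay within or just above the spread of the controls. The log2 fold change was 0.081 ± 0.072 (SE), with an interval of -0.072 to 0.23 and an edgeR adjusted p of 0.993. Per kilobase, IL2RG stood 34.6 to 41.2 times as high as IL2RB in each of the 6 libraries.

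IL2RA, on chromosome 10 (6010689 to 6062367, minus strand), encodes the alpha chain, CD25, which turns the beta and gamma chains into the high-affinity interleukin-2 receptor and is known as a mark of activated T cells. It had 7, 3 and 9 counts in the control libraries and 10, 9 and 10 counts in the PA4 libraries, or 19 and 29 in all. The groups overlapped. Without the filter on low counts the log2 fold change was 0.52 ± 0.48 (SE), with an interval of -0.43 to 1.47, which spans lower and higher values. Per kilobase, IL2RB stood 34.6 to 119 times as high as IL2RA.

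The other chains that pair with the gamma chain were detected as well. IL4R, IL7R, IL9R, IL15RA and IL21R, which bind the interleukins in their names, had mean levels of 12.0, 5.27, 4.32, 6.03 and 3.55 CPM per kilobase, chosen for their pairing and named outside the rule for the wider pathway. None of these 5 was called, and their log2 fold changes ran from -0.052 for IL9R to 0.11 for IL15RA. Their ligands were scarce. The genes of interleukins 2, 4, 7, 9, 15 and 21 together had 13 to 32 counts per library, and those of interleukins 9 and 21 had 0 counts in all 6.

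CSF2RB, on chromosome 22 (36913628 to 36940439, plus strand), encodes the common beta chain of the receptors for GM-CSF and interleukins 3 and 5, and is best known from myeloid cells. It had 111, 108 and 99.4 CPM in the control libraries and 91.8, 95.1 and 92.9 CPM in the PA4 libraries. Each PA4 library lay below each control library, as for 5.31% of all tested genes, and control replicate 3 was the control nearest to the PA4 group. The means were 106 ± 5.89 and 93.3 ± 1.66 CPM (SD, n = 3 each), and PA4 stood at 0.880 of control. The log2 fold change was -0.18 ± 0.05 (SE), with an interval of -0.28 to -0.086, an unadjusted p of 0.00112 and an edgeR adjusted p of 0.238. By p-value CSF2RB ranked 57 of 12107 genes.

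The call on CSF2RB depended on the setting, although the value was negative in each of 14 alternatives, at -0.23 to -0.15. It was called in 5 of them and not in the other 9, with adjusted p-values of 0.00338 to 0.999. Those 5 settings called 37 to 111 genes in all, beside 28 in the reported fit, and the other 9 called 17 to 74. With offsets that remove each library's trend with GC content the log2 fold change was -0.18 and the edgeR adjusted p 0.00338. Without the filter on low counts the adjusted p was 0.0487, close to the threshold. Leaving out control replicate 3 gave a log2 fold change of -0.23 and an edgeR adjusted p of 0.0100, whereas leaving out PA4 replicate 1 gave -0.17 and an adjusted p of 0.999. The other two settings that called it took the replicate number as a block.

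**Figure D3:**
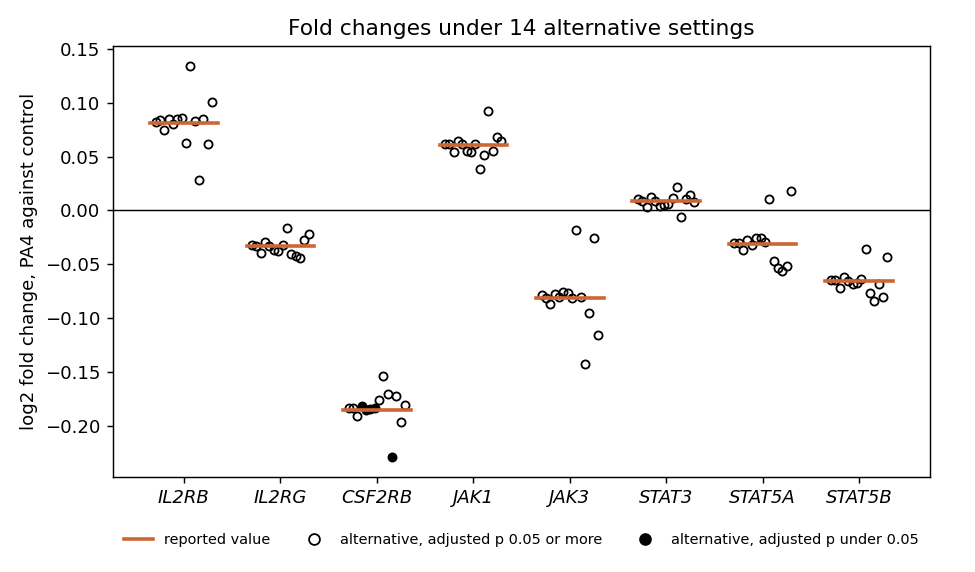
Log2 fold change of PA4 against control for the 8 tested members as reported (bars) and under 14 alternative settings (circles, from left to right in 1 fixed order; filled where the adjusted p was under 0.05). Filled circles occur for CSF2RB alone, in 5 settings, and the values of STAT3 and STAT5A cross 0.

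Few counts were assigned to the chains that CSF2RB pairs with. Low counts can also depend on how reads with several alignments were handled, which the sources used here do not give. CSF2RA, the GM-CSF receptor alpha chain, and IL5RA each had 0 or 1 count per library, and IL3RA had 1 to 8 counts. The genes of their 3 ligands, CSF2, IL3 and IL5, together had 0 to 5 counts per library. Of 10 myeloid markers 0 passed the filter and 4 (CSF1R, FCGR3A, MPO and S100A8) had no count in any library. The 10 together summed to 0.630 to 0.932 CPM in control and 0.493 to 1.18 CPM with PA4, far under the level of CSF2RB. In bulk RNA, a lower value in all cells and fewer cells that make the transcript cannot be told apart. IL2RB lies near CSF2RB on the same chromosome arm. As a description, the ratio of CSF2RB to IL2RB per kilobase was 3.82 ± 0.0942 in control and 3.18 ± 0.0627 with PA4 (SD, n = 3 each). Part of this shift comes from IL2RB, whose log2 fold change was 0.081, and neither gene was called in the reported fit.

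**Figure D4:**
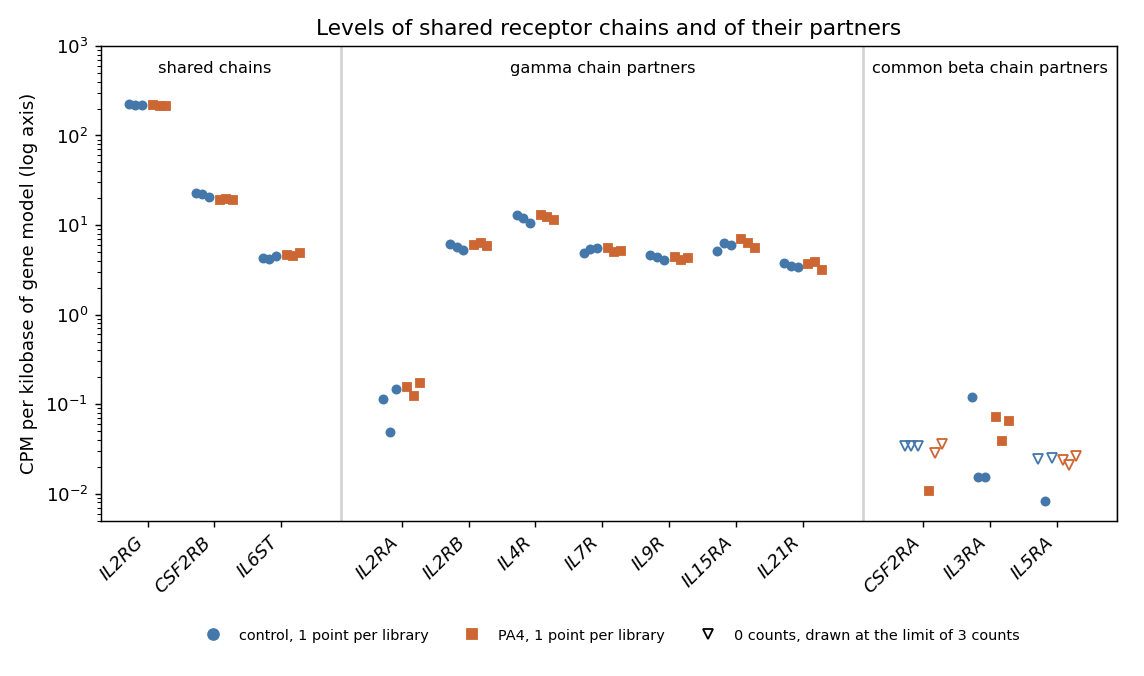
CPM per kilobase of gene model (log axis) for 3 shared receptor chains, for the chains that pair with the gamma chain and for those that pair with the common beta chain; circles are control and squares PA4 libraries, 1 point each, and open triangles mark 0 counts, drawn at the level of 3 counts. IL2RG and the chains that join it, other than IL2RA, lie well above the range of CSF2RA, IL3RA and IL5RA.

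Of the kinases, JAK1, on chromosome 1 (64833229 to 65067746, minus strand), serves nearly all cytokine receptors of this kind. It had 237, 241 and 254 CPM in control and 257, 253 and 253 CPM with PA4. Control replicate 3 lay among the PA4 libraries, and the other controls lay below them. Its log2 fold change was 0.060 ± 0.036 (SE), with an interval of -0.016 to 0.14 and an edgeR adjusted p of 0.977.

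JAK3, on chromosome 19 (17824782 to 17847982, minus strand), binds the gamma chain and is largely limited to blood cells. Its values were 48.6, 44.7 and 40.8 CPM in control and 43.2, 39.4 and 44.5 CPM with PA4. The groups overlapped throughout, with a log2 fold change of -0.081 ± 0.068 (SE), an interval of -0.22 to 0.063 and an edgeR adjusted p of 0.993. Per kilobase, JAK1 stood 5.23 to 6.90 times as high as JAK3.

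Control replicates 1 and 3 differed from each other by more than the group means did for each tested member except CSF2RB. A difference between single libraries varies more than a difference between means. CSF2RB, at 55.5% GC, was 0.15 log2 higher in control replicate 1 than in control replicate 3, beside a log2 fold change of -0.18. JAK3, with the highest transcript GC content of the 8 tested members at 58.5%, was 0.25 log2 higher in control replicate 1 than in control replicate 3. IL2RB, at 57.7% GC, was 0.21 log2 higher, and JAK1, with the lowest GC content at 46.2%, was at -0.10 log2. With GC-corrected offsets the log2 fold changes of JAK3 and IL2RB were -0.077 and 0.086, close to the reported values, and neither was called. JAK1 and STAT5B, at 0.055 and -0.068 log2 with these offsets, had unadjusted edgeR p-values of 0.046 and 0.028. Their edgeR adjusted p-values were 0.470 and 0.409, so they were not called either.

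STAT3, STAT5A and STAT5B lie side by side on chromosome 17. STAT5B (42199177 to 42288370, minus strand) and STAT5A (42287439 to 42311943, plus strand) are head to head, and STAT3 (42313324 to 42388442, minus strand) follows. STAT5A and STAT5B are close copies, which matters for how reads are shared between them. Their longest coding sequences in GENCODE release 29, 2382 and 2361 bases without the stop codon, were identical at 89.0% of 2345 aligned positions, and the longest identical run was 429 bases. Of windows of 100 bases in the longest transcript, 8.83% in STAT5A and 7.41% in STAT5B occurred unchanged in the other gene. Reads that fall wholly in such windows cannot be assigned by sequence, and their handling is not given in the sources used here. The stretch that encodes the tyrosine phosphorylated on activation is shown as a part more alike than the whole coding sequence, which was identical at 89.0%. It is 120 spliced coding bases, interrupted by intron in the genome (GRCh38, chr17:42308333-42309443 on the plus strand for STAT5A and chr17:42202381-42207558 on the minus strand for STAT5B), with the 5 differing bases in capitals and the tyrosine codon at bases 19 to 21.
STAT5A: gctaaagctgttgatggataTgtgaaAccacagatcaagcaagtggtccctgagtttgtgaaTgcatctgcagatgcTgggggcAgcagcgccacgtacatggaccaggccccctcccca
STAT5B: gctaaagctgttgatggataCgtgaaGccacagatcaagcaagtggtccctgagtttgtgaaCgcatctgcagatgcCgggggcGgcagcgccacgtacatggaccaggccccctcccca

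STAT5A had 64.8, 60.05 and 59.4 CPM in control and 62.3, 62.0 and 55.8 CPM with PA4. The groups overlapped, and PA4 replicate 3 was lowest. PA4 differed from control by a log2 fold change of -0.031 ± 0.056 (SE), with an interval of -0.15 to 0.088 and an edgeR adjusted p of 0.997.

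STAT5B had 158, 149 and 147 CPM in control and 145, 148 and 140.2 CPM with PA4. PA4 replicate 2 lay among the controls, and the log2 fold change was -0.066 ± 0.041 (SE), with an interval of -0.15 to 0.021 and an edgeR adjusted p of 0.982. Per kilobase, STAT5B stood 2.05 to 2.21 times as high as STAT5A, a ratio that depends in part on how shared reads were assigned.

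STAT3, which cytokines that signal through IL6ST and the receptors for interleukins 10 and 21 activate, had 265, 268 and 258 CPM in control and 265, 264 and 266 CPM with PA4. The PA4 libraries all lay inside the control range. Their log2 fold change was 0.0091 ± 0.033 (SE), with an interval of -0.061 to 0.079 and an edgeR adjusted p of 0.997, the value nearest to 0 among the 8 members.

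SOCS1, on chromosome 16 (11254417 to 11256204, minus strand), binds JAKs and blocks them, and lies downstream of STATs and of interferon. It had 0 counts in each of the 6 libraries, 0 of 118913700 counts in all. A count of 0 allows up to 3 counts, or 0.132 to 0.164 CPM in a single library and 0.0252 CPM over the 6 libraries, a limit that covers counting error only. No fold change can be given. The protein-coding genes within 100 kb of it that every library detected were CLEC16A, with 199 to 257 counts, and RMI2, with 93 to 110 counts, on either side of it. Between SOCS1 and RMI2, TNP2, PRM1, PRM2 and PRM3, which are known as genes of sperm development, also had 0 counts.

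The 150 bases just before the RefSeq start of SOCS1 (GRCh38.p14, chr16:11256205-11256354, minus strand) are shown because no transcript of the gene was detected. Transcripts of STAT3, STAT5A and STAT5B were abundant in these cells, but STAT activity was not measured. Capitals mark GAAA, any 2 bases and GAAA again, a pattern of interferon response elements that was picked after the sequence was seen.
SOCS1: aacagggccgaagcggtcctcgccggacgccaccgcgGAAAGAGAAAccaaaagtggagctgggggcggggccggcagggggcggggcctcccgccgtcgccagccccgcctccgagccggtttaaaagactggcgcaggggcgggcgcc

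This repeat of GAAA, searched on both strands, occurred 113 to 104 bases before the start. It was in 1 of 12 promoter windows of the 8 members matched in the RefSeq table, and in 3.57% of all 35116 windows of 250 bases before and 50 after a start. TTCNNNGAA, the same on both strands and the core of STAT binding sites, was in 0 of the 12 windows and in 7.66% of all windows. Such matches describe letters only.

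Feedback genes other than SOCS1 were expressed. All 23 genes of the list, which holds SOCS family, PIAS, phosphatase and adaptor genes, passed the filter, and 0 were called in edgeR, limma-voom or DESeq2. At an unadjusted p under 0.05, 1 was lower and 0 higher, or 4.35% of those tested beside 5.29% of all genes. The lower gene was CISH, a SOCS family gene induced by STAT5, with 25.9, 22.5 and 22.2 CPM in control and 20.4, 20.7 and 21.1 CPM with PA4. Each PA4 library lay below each control library, as for 5.31% of all tested genes. The log2 fold change was -0.19 ± 0.08 (SE), with an unadjusted p of 0.0259 and an edgeR adjusted p of 0.876. The most abundant per kilobase were the phosphatase genes PTPN11, PTPRC and PTPN1, at 71.5, 36.8 and 32.3 CPM per kilobase. SOCS3, named as the nearest relative of SOCS1 in role and outside the rule, had 333 to 447 counts and a log2 fold change of -0.036 ± 0.084 (SE).

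The 5 further JAK and STAT genes described, JAK2, TYK2, STAT2, STAT4 and STAT6, all passed the filter, and 0 were called in edgeR, limma-voom or DESeq2. None of the 5 had an unadjusted p under 0.05. TYK2, a kinase of interferon and interleukin-12 receptors, STAT6, which carries the interleukin-4 signal, and STAT2, a factor of the type I interferon response, were the most abundant of them, at 17.01, 15.7 and 6.05 CPM per kilobase. Their log2 fold changes were -0.058 ± 0.060, 0.012 ± 0.050 and -0.075 ± 0.068 (SE), with edgeR adjusted p-values of 0.993, 0.997 and 0.993. The list had 1 positive and 4 negative values and a median of -0.058 log2, and each of its 5 intervals lay within 1.25-fold in both directions.

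Among 37 other receptor chains of this class, 18 passed the filter, 8 had no count and 0 were called in edgeR, limma-voom or DESeq2. IL27RA, IFNAR1 and IFNAR2 led at 33.3, 18.81 and 18.79 CPM per kilobase. At an unadjusted p under 0.05, 2 were lower and 0 higher, or 11.1% of those tested beside 5.29% of all genes. IFNAR2, a chain of the type I interferon receptor, was at -0.13 ± 0.05 log2 (SE), and IL10RA, the ligand-binding chain of the interleukin-10 receptor, at -0.22 ± 0.10 log2 (SE), with edgeR adjusted p-values of 0.827 and 0.943. The list's median was -0.0024 log2.

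Of 34 cytokine genes 6 passed the filter, 11 had no count and 0 were called in edgeR, limma-voom or DESeq2. IL10, an anti-inflammatory cytokine that signals through STAT3, was the most abundant, with 37.7, 36.03 and 40.06 CPM in control and 35.0, 32.4 and 30.7 CPM with PA4. Each PA4 library lay below each control library, as for 5.31% of all tested genes. The log2 fold change was -0.21 ± 0.07 (SE), with an unadjusted p of 0.00456. The edgeR adjusted p was 0.506, and the alternatives gave 0.0603 to 1.000. IL23A and OSM came next at 3.17 and 1.97 CPM per kilobase, neither at an unadjusted p under 0.05.

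Known targets of STAT3 and STAT5 gave 0 calls among 24 tested of 30, by edgeR, DESeq2 and limma-voom alike. Higher values with PA4 at an unadjusted p under 0.05 were found for 4 and lower values for 0, or 16.7% of those tested, where 2.69% of all genes were higher and 2.6% lower. The 4 were DUSP5, a phosphatase of the ERK pathway, at 0.20 ± 0.07 log2 (SE), the survival gene MCL1 at 0.083 ± 0.036, the repressor BCL6 at 0.30 ± 0.14 and the kinase gene PIM2 at 0.12 ± 0.06 log2 (SE), with edgeR adjusted p-values of 0.775 to 0.943. CCND2, BCL2L1 and MCL1, genes of cell cycle entry and survival, were the most abundant, at 114, 83.0 and 49.2 CPM per kilobase. BCL2L1 and CCND2 were at -0.072 ± 0.039 and -0.013 ± 0.032 log2 (SE). Of the 24 tested targets, 14 lay above 0 and 10 below. Named outside the rule, PIM1 and BCL3 were lower, at -0.10 and -0.16 log2, and CDKN1A was higher, at 0.54 ± 0.25 log2 (SE). CDKN1A had low counts, 14 to 26 per library, with a mean of 0.936 CPM. The unadjusted edgeR p-values of PIM1, BCL3 and CDKN1A were 0.061, 0.065 and 0.052, and that of BCL2L1 was 0.085. The list's median was 0.013 log2. Many of these targets also answer to other pathways, and the list does not record whether STATs raise or lower each of them. CISH, which STAT5 also induces and which was lower at an unadjusted p under 0.05, was counted with the feedback genes. The tally of higher and lower targets therefore depends on the list in which a gene was placed.

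Over the 5 lists, 76 of 129 genes were tested and 0 called in the reported fit. Counting unadjusted p-values under 0.05, there were 4 higher and 4 lower, or 10.5% of those tested beside 5.29% of all genes. The groups did not overlap for 13 of the 76, 7 higher and 6 lower, beside 11.2% of all tested genes, 5.91% higher and 5.31% lower.

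The genes whose CPM followed the members most closely over the 6 libraries are given as a description, out of 8563 candidates with a mean of 10 CPM or more. For CSF2RB this was GLDC, a glycine cleavage enzyme gene, with a Pearson r of 0.997 and a log2 fold change of -0.090, and 66 genes had an r above 0.9. For JAK3 it was BSPRY and for IL2RB the transcription factor gene SRF, with Pearson r of 0.995 and 0.997. The libraries share depth and GC trends, and 6 points with so many candidates give high values readily.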

How the data were processed

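RNA was measured in 6 H9 libraries, 3 control and 3 PA4, made from polyadenylated RNA with a Kapa mRNA HyperPrep kit according to the labels. The authors deposited raw counts of reads per gene, 1 column per library, without normalization or pooling, and the length of each gene model in bases. Trimmomatic 0.39, fastp 0.23.2, STAR 2.7.9a, featureCounts (Subread 1.6.4) and genome build hg38 are listed per the submitters' processing notes. The sources used here give no annotation, strand setting or handling of reads with several alignments.

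The main test was edgeR 4.0.16 (R 4.3.3) without covariates. Genes passed filterByExpr at its defaults (12107 genes, at least 99.9% of counts), libraries were scaled by TMM factors of 0.997 to 1.003, and estimateDisp, glmQLFit and a two-sided glmQLFTest followed. Adjusted p-values are Benjamini-Hochberg values over the 12107 genes, and a gene was called when its adjusted p was under 0.05. CPM are counts scaled to a TMM-adjusted library size of 1000000. Standard errors and 95% intervals come from the F statistic. Precision per gene reflects both counting error, at totals of 18282212 to 22875191 counts, and variation between libraries, with a common biological coefficient of variation of 3.92%. The median standard error was 0.044 log2 over the 8 tested members and 0.069 log2 over all tested genes. No 2 libraries agreed within sampling noise (chi-square over degrees of freedom 1.48 to 6.81).

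Alternatives were DESeq2 1.42.0, limma-voom (limma 3.58.1), library size alone, no filter, the replicate number as a block, GC-corrected offsets with and without the block, counts thinned to equal depth, and each library left out. The GC offsets used a smoothed trend per library over the longest GENCODE release 29 transcript of each gene, which was found for 94.5% of tested genes. Gene coordinates and promoters come from RefSeq tables of GRCh38.p14.

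The members and lists were chosen with earlier results of these data known. The rule named all 10 members and, from 5 lists of other pathway genes, each gene called, each gene at an unadjusted p under 0.05 with a mean of 1 CPM or more, and the 3 highest per kilobase. Each of 178 list entries was found in the table by symbol. A planned pathway gene is not reported here and was left out of its list, but not out of the fits. Of 7 B cell markers 3 were tested, at a summed 39.5 to 44.8 CPM in control and 39.5 to 43.97 CPM with PA4, and of 7 natural killer cell markers 1, at 10.1 to 12.1 and 9.21 to 10.5 CPM. No list was tested as a set.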

Additional observations from a re-analysis of the deposited data

How the results depend on the processing

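Against 28 genes called in all, 26 higher and 2 lower with PA4, no filter on low counts gave 62 (53 and 9), GC-corrected offsets 98 (81 and 17), and leaving out 1 library 17 to 74, with 50 higher and 24 lower without control replicate 1. Against 0 members, no filter and GC-corrected offsets each gave 1, and leaving out 1 library gave 0 to 1, in each case CSF2RB. The lists of other pathway genes gave 0 in each of the 14 settings. The replicate block gave 59 calls (50 and 9), with 1 member, CSF2RB (edgeR adjusted p = 0.0374), and the block with GC-corrected offsets 111 (90 and 21), with 1 member, again CSF2RB (edgeR adjusted p = 0.00464). The labels number the replicates alike in both groups. The correlation of deviations between libraries of 1 number was 0.16, -0.088 and 0.42. Libraries of different numbers were not compared in this way, so whether libraries of 1 number share more than the number was not tested. Leaving out 1 library gave STAT3 log2 fold changes of -0.0058 (without control replicate 3) to 0.022, and STAT5A -0.057 to 0.018, above 0 without control replicate 1 (0.010) or PA4 replicate 3 (0.018), and neither gene was called. The cause of these differences was not tested. The other 5 tested members beside CSF2RB kept their sign and were not called in any of the 14 settings. Low counts limit what can be said of IL2RA, at 3 to 10 counts, and of SOCS1, at 0. The cause of these low counts was not tested.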
